A study of Mus musculus with 14 samples.

Results

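The proteasome is the barrel-shaped protease that degrades ubiquitin-tagged proteins. Its genes were taken by symbol as every row that begins with Psma, Psmb, Psmc, Psmd, Psme, Psmf or Psmg followed by a digit, which gave 47 of the 9474 genes measured in mouse macrophages with or without IL4. Of the 47 genes, 41 encode constitutive subunits, activators or helpers and 5 belong to the immunoproteasome (Psmb8, Psmb9, Psmb10, Psme1 and Psme2). The remaining gene, Psme2b, is a copy of Psme2.

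Psma and Psmb genes encode the alpha and beta rings of the 20S core. Proteolysis is carried out by Psmb5 (chymotrypsin-like activity), Psmb6 (caspase-like) and Psmb7 (trypsin-like). Under interferon gamma, cells build Psmb8, Psmb9 and Psmb10 into new cores in their place. This changes which peptides are made for MHC class I. Psmc and Psmd genes encode the 19S cap that binds, unfolds and feeds in the substrate. Psme1 and Psme2 form the activator PA28, Psmf1 encodes the regulator PI31, and Psmg1 to Psmg4 encode chaperones that assemble the core. Immune cells, macrophages among them, are known for high immunoproteasome content.

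Macrophages of C57BL/6J mice were studied in 2 experiments. In culture, bone marrow monocytes were grown for 7 days with CSF1, the macrophage growth factor, and with 20 ng/mL murine IL4 (4 libraries) or with CSF1 and no IL4 (4 libraries). CSF1 was given at 25 ng/mL in the growth protocol and at 20 ng/mL in the design text. In marrow, F4/80-positive cells were sorted from mice that had received, 12 days earlier, acute myeloid leukemia (AML) cells carrying an IL4 cDNA (3 libraries) or an empty vector (3 libraries). The design text calls the second kind of AML cells wild type. All marrow mice therefore carried leukemia, and IL4 came from the leukemic cells. The labels do not say whether libraries came from separate animals or cultures, so p-values measure the spread between these libraries.

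The deposited values are log2 levels from which whole reads could be recovered for 98.6% of genes and for all 47 proteasome genes. Recovered reads totalled 448088 to 721554 per library. Proteasome genes had 2 to 256 reads in a library, with a median of 61, and 7 of them averaged under 20 reads. Each gene carries its own constant in the deposited scale, so levels were compared between libraries and not between genes. IL4 response genes moved as labelled: Retnla, a secreted protein of alternative activation, was higher by 13.52 ± 0.32 in IL4 cultures and by 11.53 ± 0.32 in IL4 marrow (log2 fold change ± SE), and Arg1 (arginase) by 12.90 ± 0.54 and 7.38 ± 0.66. The F4/80 gene (Emr1) and Csf1r, the CSF1 receptor, were measured in every library. Csf1r was lower with IL4 in both experiments (-0.96 ± 0.14 and -1.17 ± 0.28). Fcgr1, another macrophage marker, had 2 to 4 reads in IL4 marrow and 20 to 26 in control marrow. Neutrophil markers (5 of 12 measured) had mean levels of 10.95 to 11.47 log2 in IL4 marrow and 11.09 to 11.68 in control marrow, against at most 1.68 in IL4 cultures and 3.84 in control cultures. In bulk RNA, fewer cells of a type and less RNA per cell cannot be told apart.

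In culture, how many proteasome genes passed the test, and in which direction, depended on how libraries were scaled. Of the 47 genes, 15 fell and 1 rose in IL4 against control cultures (limma, adjusted p below 0.05 over all genes), 31.9% and 2.13%. The background over all 9474 genes was 32.6% lower and 7.96% higher, so the share that fell was at the background and the share that rose was below it. The median log2 fold change was -0.28 over the proteasome genes and -0.36 over all genes. Centring each library on its own median brings the median over all genes close to 0 by construction, and that median became 0.00. Centring therefore cannot show where the general shift comes from. After centring, 7 proteasome genes rose and 0 fell, 14.9% and 0% against a background of 14.4% higher and 12.7% lower. The same test then gave rises of Psmb5, Psmb6, Psmb10, Psma3, Psma7, Psmd2 and Psmd8. Psmb6 alone of the 47 was called on both scales. The 15 falls on the deposited scale were 8 without control library 1 or IL4 library 2 or 3, and 9 without control library 2 or 3 or IL4 library 1. The 7 rises after centring were 4 without control library 1, 2 or 3 or IL4 library 1.

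**Figure D1:**
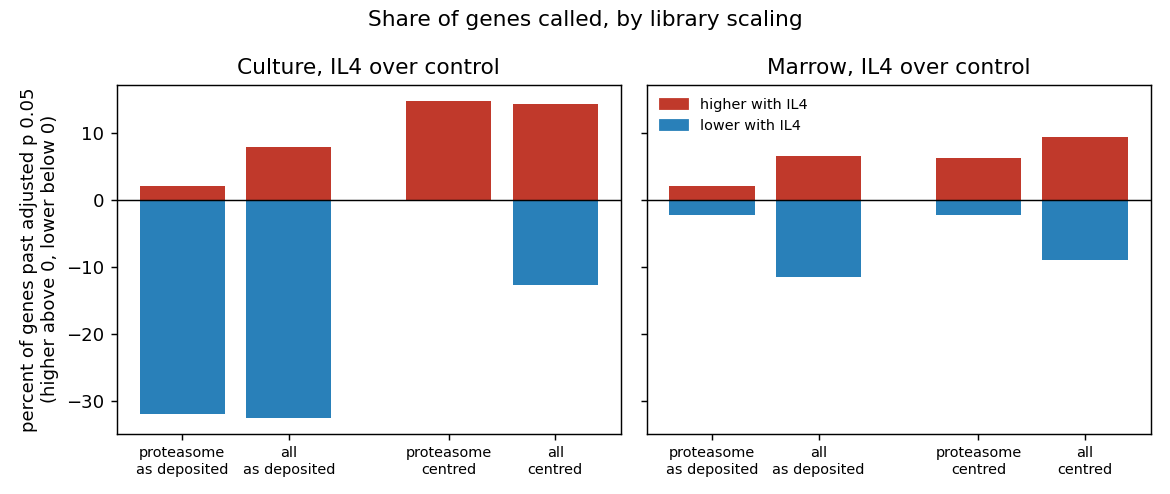
Percent of genes past an adjusted p of 0.05 (limma), higher (above 0) or lower (below 0) with IL4, for the 47 proteasome genes and all 9474 genes, on the deposited scale and after centring each library. In culture the shares of proteasome genes and of all genes were 31.9% and 32.6% lower and 2.13% and 7.96% higher as deposited, and 0% and 12.7% lower and 14.9% and 14.4% higher after centring.

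Proteasome genes took 0.546% ± 0.0101 of the recovered reads in IL4 cultures and 0.549% ± 0.0257 in control cultures (SD, n = 4 each). In marrow they took 0.636% ± 0.0506 with IL4 and 0.617% ± 0.0335 in controls (n = 3 each). Those differences were smaller than the spread between libraries.

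Among the constitutive catalytic subunits, Psmb6 rose and Psmb7 fell in culture on the deposited scale. Psmb6 (chr11:70525367-70527858, GRCm38/mm10) had log2 levels of 5.48, 5.50, 5.76 and 5.52 in IL4 cultures, against 4.89, 4.91, 4.76 and 5.11 in control cultures. All 4 IL4 cultures lay above every control. The level was 1.57-fold higher (log2 fold change 0.65 ± 0.14, adjusted p = 0.00426), and the call held without any single library (adjusted p up to 0.0153). Psmb5 (chr14:54614119-54618022) had log2 levels of 2.59, 2.40, 2.66 and 2.25 in IL4 cultures, against 2.21, 1.46, 2.04 and 1.74 in control cultures. The groups again did not overlap, but the difference of 0.61 ± 0.25 did not pass on the deposited scale (adjusted p = 0.0724). After centring it was 0.98 (adjusted p = 0.0146). The third constitutive catalytic gene, Psmb7 (chr2:38588036-38644087), went the other way. It had log2 levels of 4.99, 4.60, 4.77 and 5.01 in IL4 cultures, against 5.32, 5.60, 5.79 and 5.26 in control cultures. This was a fall on the deposited scale (log2 fold change -0.65 ± 0.17, adjusted p = 0.0112) that was not called after centring (-0.29, adjusted p = 0.189).

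The promoters of Psmb5 and Psmb6 are shown because these genes had the highest log2 fold changes of the 47 in culture. Both hold the core of the antioxidant response element, the type of site bound by Nrf1 (encoded by Nfe2l1) and Nrf2, the known activators of proteasome genes. RefSeq windows on GRCm38.p6 run from 250 bases before to 50 after the start. Psmb5 is at chr14:54617946-54618245, minus strand, and Psmb6 at chr11:70525107-70525406, plus strand. Capitals mark TGACNNNGC.
Psmb5: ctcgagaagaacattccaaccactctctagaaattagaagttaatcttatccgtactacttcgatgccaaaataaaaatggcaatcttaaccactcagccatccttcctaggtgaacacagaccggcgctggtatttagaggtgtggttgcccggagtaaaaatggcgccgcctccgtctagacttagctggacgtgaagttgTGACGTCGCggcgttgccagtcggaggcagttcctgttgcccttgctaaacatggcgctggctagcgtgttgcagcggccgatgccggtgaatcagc
Psmb6: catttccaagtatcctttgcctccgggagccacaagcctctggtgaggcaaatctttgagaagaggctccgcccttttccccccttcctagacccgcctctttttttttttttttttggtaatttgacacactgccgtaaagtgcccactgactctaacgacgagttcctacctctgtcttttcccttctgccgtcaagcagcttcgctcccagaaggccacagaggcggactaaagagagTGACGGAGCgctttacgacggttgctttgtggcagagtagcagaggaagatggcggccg
The match begins 47 bases before the start in Psmb5 and 9 before it in Psmb6. Searched on both strands, the core was in 6 of the 40 proteasome genes with a window (Psmb5, Psmb6, Psmc6, Psmd9, Psmd12 and Psme4) and in 12.4% of all 32851 windows. No window was given for Psmb1, Psmb2, Psmb7, Psmc3, Psmd3, Psmd7 or Psmg2. A match of this kind is a description of the letters. Psmb5, Psmb6 and Psmb7 have named pseudogenes in GENCODE vM21, and the counting step that could share reads with them is not given in the sources used here.

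Among the inducible catalytic genes, Psmb8 and Psmb9 fell in IL4 cultures on the deposited scale, and Psmb10 did not pass the test. Psmb9 (chr17:34181987-34187764) had log2 levels of 4.03, 3.86, 4.53 and 2.94 in IL4 cultures, against 4.95, 4.83, 4.78 and 4.93 in control cultures. Every IL4 culture was below every control, and IL4 library 4 was lowest with 7 reads. The difference was -1.03 ± 0.28, or 2.04-fold lower (adjusted p = 0.0165), and -0.67 after centring (adjusted p = 0.114). Psmb8 (chr17:34197721-34201454) had log2 levels of 3.29, 3.26, 3.63 and 3.62 in IL4 cultures, against 4.30, 3.81, 4.32 and 3.71 in control cultures. These groups did not overlap (log2 fold change -0.59 ± 0.20, adjusted p = 0.0423; after centring -0.22, adjusted p = 0.435). The Psmb8 call was lost without control library 1 or 3 or IL4 library 1, 2 or 3 (adjusted p up to 0.116). Psmb10 (chr8:105935735-105938444) had log2 levels of 5.26, 5.05, 5.19 and 5.50 in IL4 cultures, against 5.16, 5.20, 5.08 and 5.13 in control cultures. These overlapped (0.11 ± 0.14, adjusted p = 0.544), and Psmb10 was called higher only after centring (0.47, adjusted p = 0.0262).

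Psmb8 and Psmb9 lie close together in the MHC region of chromosome 17, and their windows are shown to set them against those of Psmb5 and Psmb6. The Psmb8 window is chr17:34197945-34198244 on the plus strand, with capitals for TTCNNNGAA, the letters of a gamma-activated site. Psmb9 has chr17:34187281-34187580 on the minus strand.
Psmb8: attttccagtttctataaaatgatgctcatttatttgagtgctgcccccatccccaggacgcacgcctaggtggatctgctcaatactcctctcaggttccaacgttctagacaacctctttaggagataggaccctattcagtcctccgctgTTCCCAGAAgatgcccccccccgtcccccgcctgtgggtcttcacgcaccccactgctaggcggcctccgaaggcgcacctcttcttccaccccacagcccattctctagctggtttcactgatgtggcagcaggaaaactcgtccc
Psmb9: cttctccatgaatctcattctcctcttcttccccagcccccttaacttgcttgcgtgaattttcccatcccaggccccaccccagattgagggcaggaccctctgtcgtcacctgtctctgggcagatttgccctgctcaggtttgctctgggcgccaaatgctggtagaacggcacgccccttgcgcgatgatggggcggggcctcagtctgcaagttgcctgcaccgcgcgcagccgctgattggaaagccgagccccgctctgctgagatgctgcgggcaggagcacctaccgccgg
The Psmb8 match begins 97 bases before the RefSeq start. These letters were in 3 of the 40 windows (Psmb8, Psmd2 and Psmg1) and in 8.30% of all windows. The Psmb9 window held none of the 4 motifs searched and shares 275 bases with the window of Tap1, the peptide transporter gene on the other strand. The Psmb8 and Psmb9 windows both lie inside the GENCODE bounds of their genes. Those begin at chr17:34197721 for Psmb8 and, on the minus strand, at chr17:34187764 for Psmb9. Bases before these GENCODE starts were not searched for either gene. A pair of interferon regulatory factor half-sites, GAAANNGAA, was in 7 of the 40 windows (Psmb3, Psmb4, Psmc2, Psmd4, Psmd9, Psme1 and Psmg4) and in 8.56% of all. The STAT6-type spacing TTCNNNNGAA was in the Psmb10 window alone of the 40, and in 6.95% of all. Exons of Psmb9 and Tap1 overlap in the annotation, as do exons of 14 of the 47 genes with another gene. The library kit does not mark strand, so reads in such overlaps cannot be assigned.

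**Figure D2:**
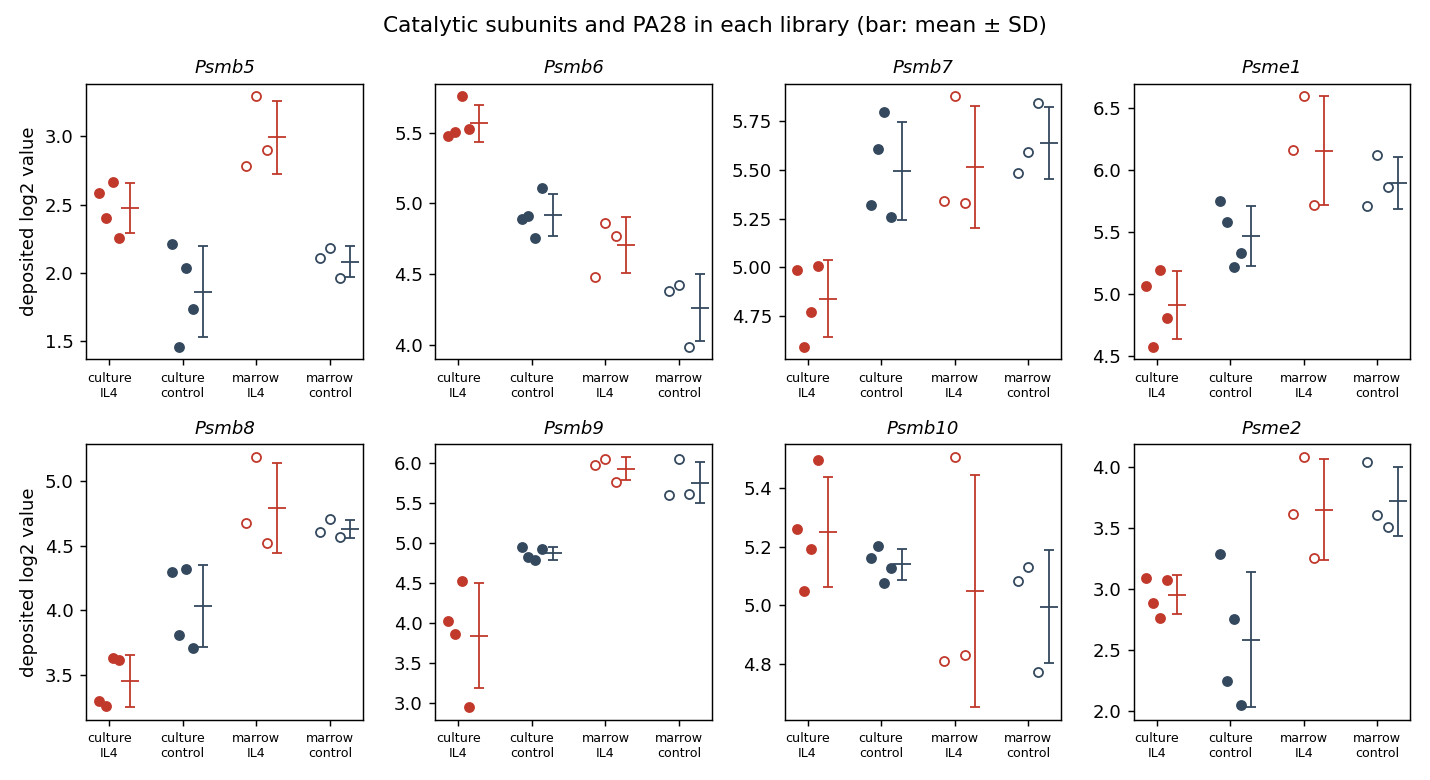
Deposited log2 level of 8 genes in each library (points), with the mean ± SD of each group beside them: constitutive catalytic subunits and Psme1 above, inducible catalytic subunits and Psme2 below. Psmb6 lies between 5.48 and 5.76 in IL4 cultures, above all control cultures, while Psmb9 is at 4.53 or lower in IL4 cultures, below all control cultures.

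Ratios of partner subunits within a library do not depend on how libraries are scaled. Psmb8 had 0.864, 0.962, 1.04 and 1.37 reads for each Psmb5 read in IL4 cultures, against 2.26, 2.75, 2.61 and 2.11 in control cultures. The ratio was 2.30-fold lower with IL4 (log2 difference -1.20 ± 0.17). For Psmb9 over Psmb6 the values were 0.116, 0.101, 0.135 and 0.0507 in IL4 cultures, against 0.333, 0.301, 0.325 and 0.282 in control cultures, 3.20-fold lower (-1.68 ± 0.30). Psmb10 over Psmb7 moved in the opposite direction. It was 1.17, 1.33, 1.30 and 1.36 in IL4 cultures, against 0.865, 0.730, 0.586 and 0.881 in control cultures, 1.70-fold higher (0.76 ± 0.14). None of the 3 ratios overlapped between the culture groups. Each gave an exact permutation p of 0.0286, two-sided, the smallest that 4 against 4 libraries allow, and 0.0571 after adjustment over the 6 comparisons, which misses the threshold. How often the groups separate over all genes or gene pairs is not given here. A lack of overlap is therefore not read as particular to the genes or ratios described.

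In marrow, the Psmb8 over Psmb5 ratio was 1.98, 1.98 and 1.64 with IL4, against 3.03, 3.09 and 3.28 in controls. All IL4 libraries lay below all controls, 1.67-fold lower (-0.74 ± 0.10, exact permutation p = 0.1, adjusted 0.15). With 3 against 3 libraries no exact permutation p can go below 0.1. Psmb9 over Psmb6 was 0.912, 0.732 and 0.644 with IL4, against 0.75, 1 and 1 in controls, and the groups overlapped (-0.27 ± 0.20, exact permutation p = 0.2). Psmb10 over Psmb7 also overlapped, at 0.667, 0.747 and 0.683 with IL4, against 0.732, 0.701 and 0.459 in controls (0.17 ± 0.22, exact permutation p = 0.8), and without control library 3 its sign turned (-0.038). The culture and marrow responses of the ratios were then compared by permuting labels within each experiment. For Psmb9 over Psmb6 the response was more negative in culture by 1.41 on the log2 scale (permutation p = 0.0371, adjusted over 3 ratios 0.111). The differences were -0.46 for Psmb8 over Psmb5 (permutation p = 0.433) and 0.59 for Psmb10 over Psmb7 (permutation p = 0.146).

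**Figure D3:**
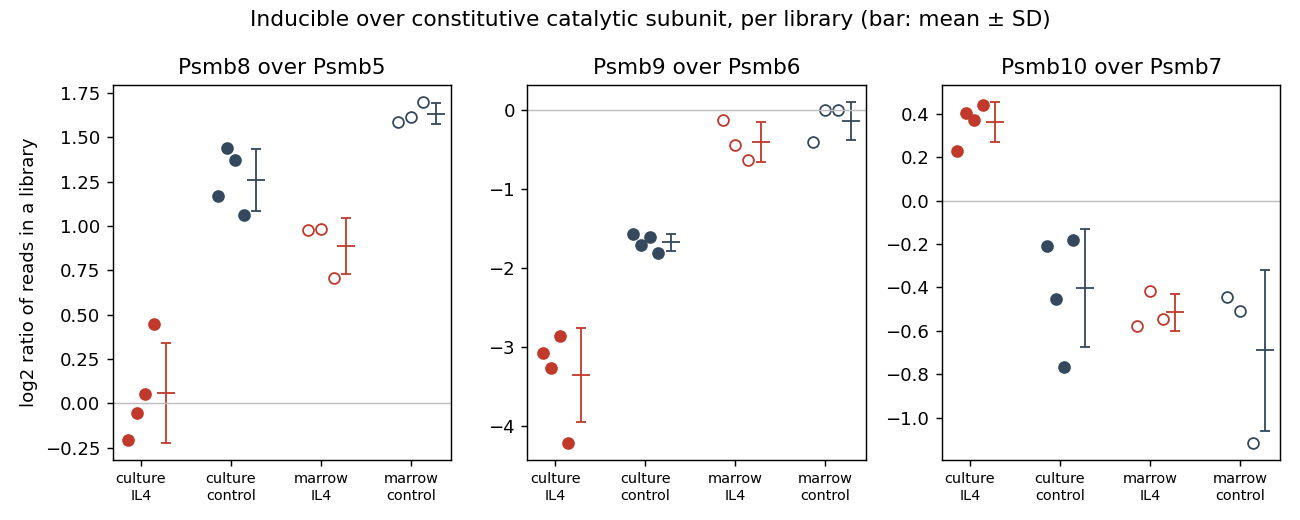
Log2 ratio of recovered reads of the inducible to the constitutive catalytic subunit in each library (points), with the mean ± SD of each group. The Psmb8 over Psmb5 ratio is lower with IL4 in culture and in marrow without overlap, and the Psmb9 over Psmb6 ratio is lower without overlap in culture only, where Psmb10 over Psmb7 is higher.

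Of the PA28 subunits, Psme1 fell in culture on the deposited scale and Psme2 did not pass the test; the difference between them was not tested. Psme1 had log2 levels of 5.07, 4.58, 5.19 and 4.81 in IL4 cultures, against 5.75, 5.58, 5.22 and 5.33 in control cultures, without overlap. Its log2 fold change was -0.56 ± 0.18 (adjusted p = 0.0311) on the deposited scale, and it was not called after centring (-0.20, adjusted p = 0.452). The fall was not called without control library 1 or 2 or IL4 library 2 or 4 (adjusted p up to 0.0883). Psme2 had log2 levels of 3.09, 2.88, 2.76 and 3.07 in IL4 cultures, against 3.28, 2.25, 2.75 and 2.04 in control cultures (0.37 ± 0.28, adjusted p = 0.318). Psme2 had 6 to 23 reads in a library and Psme2b had 48 to 103. Their longest GENCODE transcripts were identical at 789 of 794 aligned bases (99.4%), so reads may be split between them and neither level is certain. Psme2b was not called in any of the comparisons.

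Of the other 11 constitutive 20S core genes, 6 fell in culture on the deposited scale, where 32.6% of all genes fell. Of the 4 structural beta genes, Psmb1, Psmb2 and Psmb3 fell, and of the 7 alpha ring genes, Psma1, Psma2 and Psma6 fell. Leaving out 1 library ended the Psma1 call in 6 of 8 cases (adjusted p up to 0.124) and the Psma2 call in 4 of 8. Psmb2 had log2 levels of 5.92, 6.32, 6.23 and 6.44 in IL4 cultures, against 6.77, 6.86, 6.97 and 6.93 in control cultures (-0.66 ± 0.13, adjusted p = 0.00375). Psmb3, with 6 to 13 reads in IL4 cultures and 12 to 24 in control cultures, had a log2 fold change of -0.87 ± 0.28 (adjusted p = 0.0300), a call lost without control library 1, 2 or 3 or IL4 library 1 or 3. None of these falls was called after centring, when Psma3 (0.50, adjusted p = 0.0247) and Psma7 (0.51, adjusted p = 0.0190) were called higher. Psma5 had the fewest reads of the alpha ring and was not called in either experiment.

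In the 19S cap, 5 of 17 genes fell in culture on the deposited scale and 0 rose, 29.4% against 32.6% of all genes that fell. These were the unfolding ATPases Psmc1, Psmc2 and Psmc3 and the lid subunits Psmd3 and Psmd7. Leaving out 1 library ended the Psmc2 call in 5 of 8 cases and those of Psmd3 and Psmd7 in 6 of 8 each. Psmc3 had log2 levels of 5.56, 5.15, 5.37 and 5.56 in IL4 cultures, against 6.16, 6.13, 6.30 and 5.89 in control cultures (-0.71 ± 0.14, adjusted p = 0.00381). After centring it was not called (-0.35, adjusted p = 0.0805). On that scale Psmd2, which builds the base, and Psmd8 of the lid were called higher (0.33 against -0.03 as deposited, adjusted p = 0.0423, and 0.69, adjusted p = 0.00632). Log2 fold changes of the other activators, Psme3 and Psme4, were 0.01 and -0.02 as deposited. None of the 3 base chaperones (Psmd5, Psmd9 and Psmd10) or the 4 core chaperones passed the test in culture on either scale.

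**Figure D4:**
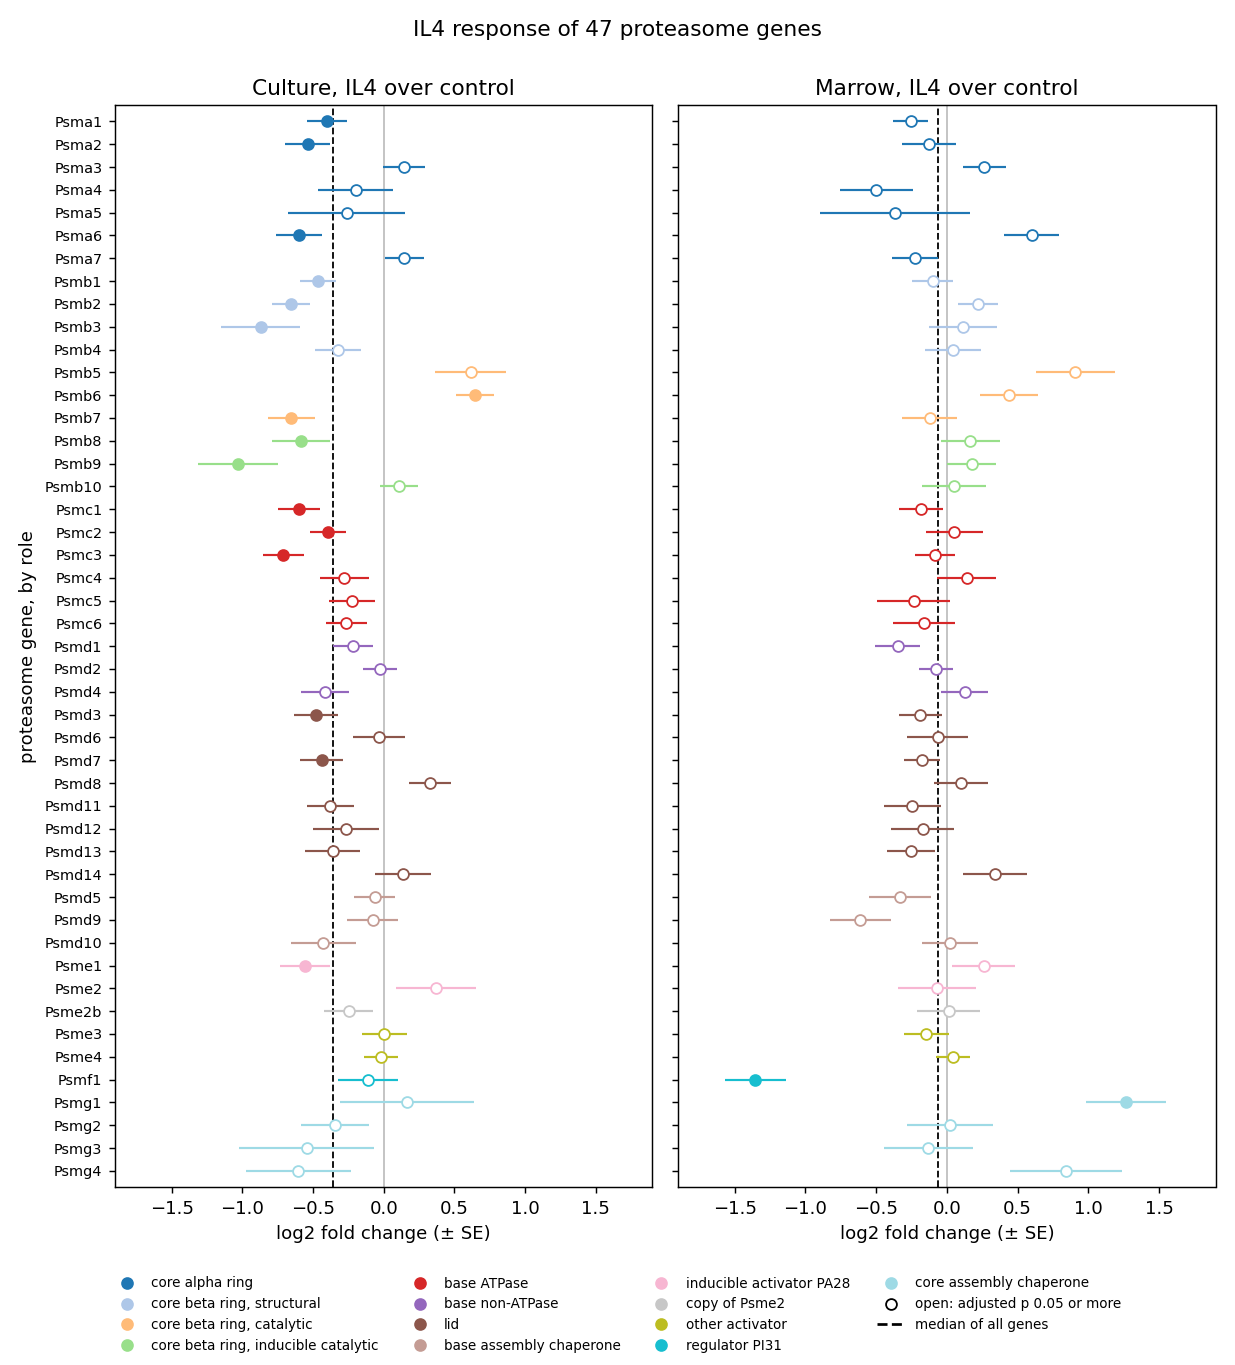
Log2 fold change ± SE, IL4 over control, of the 47 proteasome genes in culture (left) and marrow (right), coloured by role. Filled points passed an adjusted p of 0.05 (limma) on the deposited scale, and dashed lines mark the median of all 9474 genes (-0.36 in culture and -0.06 in marrow).

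In leukemic marrow, IL4 was followed by few changes among proteasome genes: 1 rose and 1 fell of 47, against a background of 6.7% higher and 11.5% lower over all genes. The median log2 fold change was -0.07 over the proteasome genes and -0.06 over all genes. The gene that fell was Psmf1, which encodes PI31, a proteasome-binding regulator. It had log2 levels of 3.78, 3.28 and 3.91 in IL4 marrow, against 4.95, 5.08 and 4.99 in control marrow, from 15, 10 and 24 reads against 39, 43 and 43. Control values were close together and all IL4 values lay below them. Psmf1 was 2.56-fold lower (log2 fold change -1.35 ± 0.22, adjusted p = 0.00287; after centring -1.25, adjusted p = 0.00475). The gene that rose was Psmg1, a chaperone of alpha ring assembly. Its log2 levels were 2.92, 3.32 and 3.22 in IL4 marrow, against 1.70, 1.88 and 2.08 in control marrow, from 15, 19 and 27 reads against 7, 8 and 10. Psmg1 was 2.41-fold higher (1.27 ± 0.28, adjusted p = 0.0138; after centring 1.37, adjusted p = 0.00831), on few reads. Both calls held without any single library. Without control library 2 a further gene, Psma6, was called higher, and without control library 3 the falls were 2.

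After centring, Psma6 and Psmb5 were also called higher in marrow, against a background of 9.45% higher and 8.92% lower. Psmb5 had log2 levels of 2.78, 3.29 and 2.90 in IL4 marrow, against 2.11, 2.18 and 1.96 in control marrow, without overlap (0.91 ± 0.28, adjusted p = 0.0521 as deposited and 0.0321 after centring). These 3 rises after centring were 1 without any of the 3 IL4 libraries or control library 1 or 3. Psmb6 had 0.44 ± 0.21 (adjusted p = 0.174) and Psmb7 -0.12 ± 0.19 (adjusted p = 0.716). None of the 5 immunoproteasome genes passed in marrow. Their log2 fold changes were 0.17 ± 0.21 for Psmb8, 0.18 ± 0.17 for Psmb9, 0.05 ± 0.23 for Psmb10, 0.26 ± 0.22 for Psme1 and -0.07 ± 0.28 for Psme2. Psme2 was slightly above 0 (0.04) after centring.

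**Figure D5:**
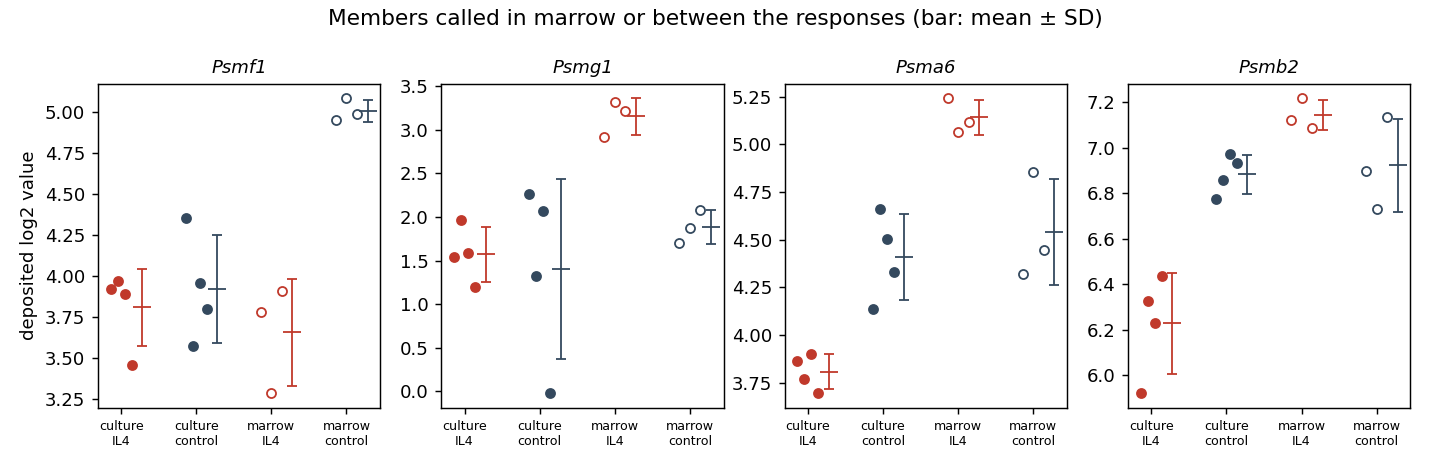
Deposited log2 level of Psmf1, Psmg1, Psma6 and Psmb2 in each library (points), with the mean ± SD of each group. In marrow all IL4 values of Psmf1 lie below the controls and all IL4 values of Psmg1 above them, and in culture all IL4 values of Psma6 and Psmb2 lie below the controls.

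The IL4 responses of culture and marrow were compared gene by gene with an interaction term over all 14 libraries. Psmf1 was the 1 proteasome gene whose response was higher in culture (difference 1.24 ± 0.30, adjusted p = 0.00941), with a culture log2 fold change of -0.11 ± 0.21 as deposited and 0.25 after centring. Lower responses in culture than in marrow were found for 4 genes. The background was 6.45% higher and 16.6% lower over all genes. Psma6, of the alpha ring, had log2 levels of 3.86, 3.77, 3.90 and 3.70 in IL4 cultures, against 4.14, 4.66, 4.50 and 4.33 in control cultures. In marrow it had 5.24, 5.06 and 5.12 with IL4, against 4.32, 4.86 and 4.45 in controls. Its groups did not overlap in either experiment, low with IL4 in culture and high with IL4 in marrow. The culture fall passed as deposited (adjusted p = 0.0157) and not after centring (adjusted p = 0.294), and the marrow difference passed only after centring (adjusted p = 0.0331, against 0.0602 as deposited). The difference between the responses passed on both scales (as deposited -1.20 ± 0.24, adjusted p = 0.00283). Psmb2 differed by -0.88 ± 0.19 (adjusted p = 0.00504), Psmb9 by -1.21 ± 0.38 (adjusted p = 0.0345) and Psmc3 by -0.63 ± 0.20 (adjusted p = 0.0358). After centring the background was 9.38% higher and 9.5% lower. Psmf1, Psma6 and Psmb2 were called on that scale too, while Psmb9 (adjusted p = 0.103) and Psmc3 (adjusted p = 0.188) were not, and Psma7 was called higher in culture (0.63, adjusted p = 0.029). Psmf1, Psma6 and Psmb2 were called without any single library, while the Psmb9 call was lost in 7 and the Psmc3 call in 10 of 14 such fits. The lower responses numbered 2 without culture control 1 or 2, marrow IL4 library 1 or 2, or marrow control 1 or 3, and 7 without culture control 4.

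Counts for genes that work with the proteasome also moved with the scaling. In culture 7.96% of all genes rose and 32.6% fell as deposited, and 14.4% rose and 12.7% fell after centring; in marrow the shares were 6.7% and 11.5%, and 9.45% and 8.92% after centring. Of 10 measured partner and assembly genes (of 14 listed), 1 rose and 1 fell in culture and none was called in marrow. After centring 5 rose and 0 fell in culture and 1 rose in marrow. Zfand5, a proteasome activator, rose by 0.95 ± 0.12 (adjusted p = 0.000276), and Pomp, the chaperone of core maturation, fell by 0.42 (adjusted p = 0.0127), but was near 0 after centring (-0.06). In marrow Pomp had -0.44 ± 0.20 (adjusted p = 0.154). Of 9 measured transcription regulators, 2 fell in culture: Mafg, a partner of Nrf1 and Nrf2 (-0.95 ± 0.16, adjusted p = 0.00148; called after centring too), and Ddi2, the protease that activates Nrf1 (-0.61 ± 0.16, adjusted p = 0.0134; -0.24 and not called after centring). Nfe2l1 itself had 120, 145 and 172 reads in IL4 marrow, against 85, 81 and 93 in control marrow. It was the 1 regulator that rose there (0.79 ± 0.16, adjusted p = 0.00842). In culture Nfe2l1 was not called as deposited (0.10 ± 0.12) and was called higher after centring (0.47, adjusted p = 0.0131). After centring 2 regulators rose in culture and 1 fell, and the second to rise was Nfe2l2, which encodes Nrf2 (0.60, adjusted p = 0.00913; 0.24 and not called as deposited).

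Of 18 measured genes of ubiquitin supply and delivery, 2 fell and 0 rose in culture, while 0 fell and 3 rose after centring. Ubqln2, which carries ubiquitylated proteins to the proteasome, was among the 2 (-0.65 ± 0.16, adjusted p = 0.0108). In marrow 2 rose and 1 fell. Sqstm1, which encodes the ubiquitin-binding autophagy receptor p62, had 293, 300 and 374 reads in IL4 marrow, against 99, 112 and 118 in control marrow (1.60 ± 0.13, adjusted p = 0.000111).

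MHC class I peptide genes and interferon signalling genes are set beside the immunoproteasome because they share its known inducers. Of 13 measured peptide pathway genes, 1 rose and 4 fell in culture, and 4 rose and 0 fell in marrow. After centring 3 rose and 1 fell in culture and 5 rose in marrow. As deposited, 30.8% of these genes fell in culture, against 32.6% of all genes, and 30.8% rose in marrow, against 6.7% of all. Nlrc5, the transactivator of class I genes, had 6, 6, 2 and 3 reads in IL4 cultures, against 58, 19, 25 and 16 in control cultures (-2.67 ± 0.34, adjusted p = 0.000261), while H2-T23 rose (1.14 ± 0.22, adjusted p = 0.00254). H2-K1 and H2-D1, classical class I genes, rose in marrow (1.09 ± 0.18, adjusted p = 0.00339, and 0.67 ± 0.12, adjusted p = 0.00503). Tap1 fell in culture as deposited (-0.74 ± 0.26, adjusted p = 0.0451; after centring -0.37, adjusted p = 0.305) and was not called in marrow (0.29 ± 0.21). The Tap1 call was lost without any 1 of 6 libraries, those other than control 4 and IL4 library 1. B2m, the class I light chain, was not called in either experiment (-0.24 ± 0.11 in culture, 0.12 after centring, adjusted p = 0.108 and 0.491, and 0.39 ± 0.15 in marrow, adjusted p = 0.113).

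Of 20 measured interferon signalling genes, 3 rose and 12 fell in IL4 cultures, and 5 rose and 8 fell after centring. The falls were 60% of the list against 32.6% of all genes as deposited, and 40% against 12.7% after centring. Irf1, a transcription factor known to induce immunoproteasome genes, fell by 1.42 (adjusted p = 0.00367) and was also called after centring. Irf7 had 4, 1, 0 and 0 reads in IL4 cultures, against 31, 15, 7 and 7 in control cultures (-3.58 ± 0.73, adjusted p = 0.00379). Socs1, a feedback inhibitor of cytokine signalling, rose (3.56 ± 0.72, adjusted p = 0.00376). So did the guanylate-binding protein gene Gbp2 (2.44 ± 0.34, adjusted p = 0.00043) and the kinase gene Jak2 (1.42 ± 0.17, adjusted p = 0.00019). In marrow 2 rose and 2 fell, 10% each against 6.7% and 11.5% of all genes. The rises were Ifngr1, an interferon gamma receptor gene (1.31 ± 0.17, adjusted p = 0.00112), and Jak2 (0.76 ± 0.14, adjusted p = 0.00537). Irf8 (-2.19 ± 0.28, adjusted p = 0.00112) and the guanylate-binding protein gene Gbp3 (-1.52 ± 0.43, adjusted p = 0.0373) fell there, the Gbp3 call being lost after centring (adjusted p = 0.0507) and in 4 of 6 fits without 1 library (adjusted p up to 0.117), while Irf1 (0.18 ± 0.25) was not called.

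Genes of dividing cells moved with IL4 in the same libraries. Of 12 measured, 10 fell in culture (8 after centring, when 1 rose) and 10 fell in marrow. Their summed reads were 389 to 555 in IL4 cultures and 605 to 1835 in control cultures, and 1368 to 2042 in IL4 marrow and 3390 to 4146 in control marrow. Control culture 4 stood apart with 142 Mki67 reads, against 445 to 625 in the other control cultures. Without it 16 proteasome genes fell on the deposited scale, and 7 rose after centring. IL4 culture 4 had 72 Mki67 reads, against 32 to 48 in the other IL4 cultures. Without IL4 culture 4, 15 proteasome genes fell on the deposited scale, and 5 rose after centring. Of the monocyte markers (4 of 7 measured), 2 fell and 1, Chil3, rose in IL4 marrow (2.95, adjusted p = 7.09e-06). Chil3 is also a known IL4 response gene. The other 3, which had recovered reads, summed to 56 to 130 with IL4 and 934 to 1210 in controls. In culture 3 of the 4 fell and Chil3 rose. B cell genes (3 of 9 measured) all fell in marrow, with 24 to 65 summed reads with IL4 and 99 to 116 in controls, while in culture 2 rose and 1 fell. Both measured erythroid genes of 10 listed fell in marrow, with 105 to 212 summed reads with IL4 and 911 to 1019 in controls. Both rose in culture, with 346 to 777 summed reads with IL4 and 42 to 103 in controls. Progenitor and leukemic blast genes (3 of 9 measured) had 121 to 207 summed reads in IL4 marrow and 76 to 91 in controls. Of these genes 1 was called higher there and 1 lower. Dendritic cell genes (3 of 10 measured, 2 with recovered reads) had 156 to 316 and 38 to 55. Those 2 were Mgl2, also listed under alternative activation, and Bst2. In marrow Mgl2 had 131 to 274 reads with IL4 and 1 to 6 in controls, and Bst2 had 25 to 42 and 34 to 54. The 1 measured T and NK cell gene fell in marrow, with 2 to 4 reads with IL4 and 23 to 36 in controls. That gene rose in culture, with 365 to 632 reads with IL4 and 57 to 287 in controls. In culture the progenitor list had 9 to 16 with IL4 and 21 to 52 in controls. The dendritic sum there was 365 to 623 with IL4 and 60 to 150 in controls. Mgl2 had 344 to 592 of these reads with IL4 and 0 in every control culture, while Bst2 had 21 to 42 and 60 to 150. The dendritic gene without recovered reads, Itgax, rose in culture and was called higher in marrow only after centring. No measured gene of the dividing, monocyte, B cell or erythroid lists was at 0 reads in all libraries of a group. The part of dividing cells and of other cell types in the proteasome results was not tested.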

How the data were processed

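RNA-seq was analysed in 14 mouse libraries. TopHat2 2.0.13, bcl2fastq and the build mm10 are named per the submitters' processing notes. No counting tool or strand setting is given in the sources used here. The authors' library values are log2 levels, as the values show: log2 of whole reads plus 0.5, shifted by 1 amount for each gene and another for each library. Reads were recovered by solving for these amounts (largest residual 0.000628 log2 under 100 reads). Fold changes, p-values and q-values that the authors deposited were not used. The culture fold change matches a second log2 of the log2 values (median difference 4.26e-08), not their plain difference (0.306). The marrow fold change matches the plain difference (median difference 6.45e-08). This check does not cover the deposited p-values and q-values.

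The main test was limma 3.58.1 (R 4.3.3) with a variance trend on the deposited log2 values over all 9474 genes in each experiment, without covariates, two-sided, with Benjamini-Hochberg adjustment. Culture had 6 residual degrees of freedom and marrow 4. Read recovery and the limma test were also run on simulated data, whose outcome is not given here. Those data had the same spread setting for every gene and no general shift between groups, so they could not test the library scaling. Ratios within a library used exact permutation tests (log2 of reads plus 0.5). Coordinates are from GENCODE vM21 (GRCm38, the same assembly as mm10), and promoters from RefSeq. No 2 libraries of a group agreed within sampling noise (1.23 to 3.97 chi-square units for each degree of freedom). In both culture groups, pairs with library 4 were furthest apart, at 2.60 to 3.97, against 1.23 to 1.87 for the other culture pairs. Marrow pairs had 1.35 to 2.05. Per-sample columns left unused numbered 0.

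The members and lists were chosen with earlier results of these data known. Named in detail were the 5 immunoproteasome and 3 constitutive catalytic genes, up to 4 rises and 4 falls among called members per comparison, the 2 called genes of each pathway list with the largest change, and Pomp, Nfe2l1, Irf1, Tap1, B2m, Retnla and Arg1. Some genes under this rule are not reported here. Members called after centring, Nfe2l2, Chil3, Mgl2, Bst2, Itgax, Gbp2, Jak2 and Ifngr1 were named too, chosen after their values were seen. Alternatives were library centring, quantile normalization, no variance trend, a filter at the 25th percentile, reads plus 2, a replicate block and leaving out each library; centring together with the last 2, and the permutation comparison of culture with marrow ratios, were added after the data were seen.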

Additional observations from a re-analysis of the deposited data

Results flagged for a closer look

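Among the 47 proteasome genes, 94 culture groups of 4 libraries were examined for a library far from the other 3, by the gap to its neighbour as a share of the group's range against Dixon's 95% critical value. Chance flags about 1 in 20 such groups, and 7 of the 94 were flagged. In IL4 cultures, Psmb6 was highest in library 3 (share 0.835, log2 level 5.76, others 5.48 to 5.52) and Psmf1 was lowest in library 4 (0.848, 3.45, others 3.89 to 3.97). In control cultures, Psmc5 (0.864) and Psmd1 (0.904) were highest in library 2, Psma5 was highest (0.881) and Psme2b lowest (0.864) in library 3, and Psmd5 was highest in library 1 (0.854). Psma5 had 2 to 8 reads per library.

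The IL4 responses of 5 genes differed between culture and marrow in the interaction test. The culture response minus the marrow response was -1.20 for Psma6, -0.88 for Psmb2, -1.21 for Psmb9, -0.63 for Psmc3 and 1.24 for Psmf1. Psma6 was the 1 of these with groups that did not overlap in either experiment. Its levels were lower with IL4 in culture and higher with IL4 in marrow. The marrow difference did not pass the test as deposited (adjusted p = 0.0602), nor the culture difference after centring (adjusted p = 0.294). Psmb5 and Psmb6, not called in the interaction test, also had no overlap in either experiment, so this lack of overlap is not particular to Psma6.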

How the results depend on the processing

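The scaling of libraries moved the culture counts most. Of the 47 proteasome genes, 16 were called in culture (1 rise, 15 falls), against 7 after centring (7 rises, 0 falls) and 8 after quantile normalization (6 rises, 2 falls). Without the variance trend 2 rose. In marrow 2 were called (1 rise, 1 fall), against 4 with 3 rises both after centring and after quantile normalization, and 2 rises without the trend or with reads plus 2. In the comparison of responses, 1 gene was higher and 4 were lower in culture, against 2 and 2 after centring and after quantile normalization. The cause of these moves was not tested.

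Leaving out 1 library at a time gave 9 to 17 calls in culture (1 to 2 rises, 8 to 16 falls), and 4 to 7 rises with 0 to 1 falls after centring. In marrow it gave 2 to 3 calls (1 to 2 rises, 1 to 2 falls), and after centring 1 to 2 rises and 1 to 2 falls. For the comparison of responses it gave 3 to 8 calls, 1 higher in each case and 2 to 7 lower. In culture the ratio differences ranged from -1.33 to -1.11 for Psmb8 over Psmb5, -1.84 to -1.39 for Psmb9 over Psmb6 and 0.64 to 0.84 for Psmb10 over Psmb7. In marrow they ranged from -0.79 to -0.65, -0.40 to -0.15 and -0.038 to 0.30.

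Whether replicate numbers pair the libraries could not be decided from 4 pairs in culture and 3 in marrow. Same-numbered libraries correlated at -0.07 to 0.01 in culture and 0.01 to 0.08 in marrow, and 0 of 4 and 2 of 3 pairs matched best. With a replicate block, 9 genes were called in culture (8 falls), and 1 rise was called in marrow after centring. The ratio differences in culture stayed at -1.20, -1.68 and 0.76 under the block, with an exact permutation p of 0.125, the smallest that 4 pairs allow.

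After centring, the log2 fold change of 17 of the 47 genes turned sign in culture (37 were below 0 as deposited and 20 after) and that of 5 in marrow; 1 of the 17, Psmd2, and 0 of the 5 were called on either scale. Among the genes named with values, those whose differences changed sign under some alternative were Psmd2 in culture (0.33 after centring, 0.13 after quantile normalization, -0.12 to 0.026 without 1 library), Psmf1 in culture (0.25, 0.27, -0.23 to 0.032) and B2m in culture (0.12 after centring). In marrow these were Psmc3 (0.022 after centring, -0.16 to 0.010 without 1 library), Psme2 (0.037, 0.053 after quantile normalization, -0.29 to 0.13), Psmb8 (-0.031 to 0.30 without 1 library) and Psmb10 (-0.18 to 0.17). None of these passed the test in its experiment as deposited. Low depth limits Psma5, Psmg1, Psmb3 and Psme2.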
